A study of Mus musculus with 10 samples.

Results

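The 10 genes described here encode channels that release calcium from intracellular stores and pumps that remove calcium from the cytosol. They are the ryanodine receptor genes *Ryr1*, *Ryr2* and *Ryr3*, the inositol trisphosphate (IP3) receptor genes *Itpr1*, *Itpr2* and *Itpr3*, and the pump genes *Atp2a2*, *Atp2b1*, *Atp2b2* and *Atp2b4*. They were taken by name, and all 10 had a row among the 24453 genes of the count table. RNA-seq libraries came from sorted layer 5 intratelencephalic projection neurons (IT-PNs) of the right primary motor cortex (M1). Each of 5 animals gave 1 library of *Fezf2+ve* and 1 library of *Fezf2−ve* IT-PNs, so there were 5 of each type. All animals were male, hemizygous for the (Zfp312-EGFP)CO61GsatMmnc reporter on a Swiss Webster background, and both types came from the same animals. In this reporter GFP is driven by *Fezf2* regulatory sequence, so the sort rests on GFP and not on *Fezf2* RNA. The study examined the sorted samples by RT-PCR and reports a product of endogenous *Fezf2* in the *Fezf2+ve* samples only. Cholera toxin subunit B coupled to Alexa 647 (CTB647) was placed in the left M1 on postnatal days 23–25 to label neurons that project there. Tissue was taken on postnatal days 28–32. *Fezf2+ve* cells were positive for GFP and CTB647, with a mean yield of 11280 cells in the labels, and *Fezf2−ve* cells were positive for CTB647 alone, with a mean yield of 2688 cells. The study's text gives a larger mean for the *Fezf2−ve* type than the labels do.

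Neurons keep cytosolic calcium low and hold a store of it in the endoplasmic reticulum (ER). Ryanodine receptors open in response to calcium and amplify a calcium signal, whereas IP3 receptors open when IP3 made by phospholipase C binds together with calcium. SERCA pumps, such as the product of *Atp2a2*, refill the ER, and PMCA pumps, the products of the *Atp2b* genes, export calcium across the plasma membrane. In cortical pyramidal neurons these proteins shape calcium signals in dendrites and spines and help set how fast calcium is cleared after firing.

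The libraries were shallow. Reads on genes numbered 118134, 107643, 118069, 151591 and 203379 in *Fezf2+ve* libraries 1 to 5, and 167916, 89138, 168711, 211368 and 217738 in *Fezf2−ve* libraries 1 to 5. The totals were lower in *Fezf2+ve* in 4 of 5 animals, and the ranges overlapped (exact paired sign-flip permutation test, two-sided, p = 0.188, where the smallest p possible with 5 animals is 0.063). CPM are reads per 1000000 reads on genes of the library, and the 3 reads taken as the smallest detected number correspond to 13.8 to 33.7 CPM by library. Floors and counting intervals cover counting error only, since the reads come from PCR without molecular identifiers and do not each stand for 1 molecule. *Fezf2+ve* library 1 stood apart in that 1 gene, *Sema6a*, held 29.8% of its reads, and the gene with the most reads held 10.3% or less in the other 9 libraries.

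The labels were set against marker genes of the expected and of other cell types. Of 10 projection neuron markers, *Tbr1* had no read, *Neurod6* and *Neurod2* had 2 reads each over all libraries, and *Slc17a7*, the vesicular glutamate transporter of cortical projection neurons, had 11. *Camk2a* was the most abundant of them, with 529 of its 588 reads in *Fezf2−ve* library 3. The summed level of all 10 was 601, 437, 263, 26.4 and 88.5 CPM in *Fezf2+ve* libraries 1 to 5. In *Fezf2−ve* libraries 1 to 5 it was 101, 112, 3325, 52.0 and 41.3 CPM. Of 8 layer 5 markers, *Crym* and *Rbp4* had no read, *Fezf2* had 1 and *Etv1*, the most abundant, had 23. At this depth *Tbr1*, *Neurod6*, *Neurod2*, *Fezf2*, *Crym* and *Rbp4* were thus at 0 to 2 reads each over all 10 libraries.

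Microglial markers separated the types. The summed level of all 12 was 245, 177, 93.2, 66.0 and 113 CPM in *Fezf2+ve* libraries 1 to 5, and 6205, 4555, 6544, 1566 and 3941 CPM in *Fezf2−ve* libraries 1 to 5. Every *Fezf2−ve* library lay above every *Fezf2+ve* library, and *Ctss*, the most abundant of these genes, had 10 reads in *Fezf2+ve* and 807 in *Fezf2−ve*. The microglial sum was above the projection neuron sum in every *Fezf2−ve* library and in *Fezf2+ve* libraries 4 and 5. It was below that sum in *Fezf2+ve* libraries 1 to 3. Sums over different lists do not give shares of cells. Markers of the oligodendrocyte lineage summed to 158 to 12597 CPM in *Fezf2+ve* and 189 to 2370 CPM in *Fezf2−ve* libraries, with no marker at 0 overall. Astrocyte markers summed to 477 to 7683 CPM and 41.3 to 3804 CPM, with 77.7% of the reads on *Slc1a2* and none on *Gfap*. *Slc1a2* had 778 reads in *Fezf2+ve* library 2 and 791 in *Fezf2−ve* library 4. Markers of vascular and blood cells summed to 6.60 to 466 CPM in *Fezf2+ve* and 45.9 to 2329 CPM in *Fezf2−ve*, mostly from the haemoglobin gene *Hbb-bs*, while 4 of 8 interneuron markers, *Slc32a1*, *Pvalb*, *Vip* and *Lhx6*, had no read and *Npy* had the most, with 7. In bulk samples, fewer cells of a type and less RNA per cell cannot be told apart, and the part of other cell types in the values of the calcium genes was not tested.

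**Figure D1:**
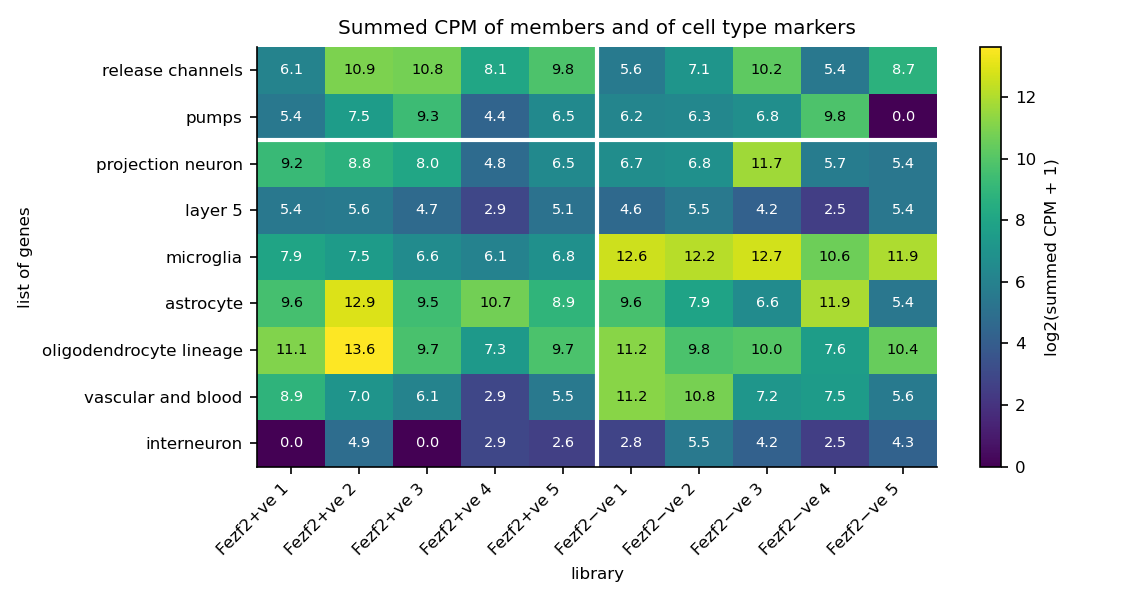
Summed CPM, as log2(CPM + 1), of the release channel genes, the pump genes and 7 lists of cell type markers (rows) in each of the 10 libraries (columns). Microglial markers are high in all 5 *Fezf2−ve* libraries, and the summed pump level is 0 in *Fezf2−ve* library 5.

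Reads were few on the calcium genes too. They held 1318 reads in all, which was 0.0848% of the reads on genes, with 970 on release channels and 348 on pumps. Of the 100 values for 10 genes in 10 libraries, 39 were 0 and 35 were at least 3 reads. A total of 7 values of at least 50 reads held 1100 of the 1318 reads.

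The pore of a release channel is lined by a short glycine-rich stretch that selects for calcium and is conserved between ryanodine and IP3 receptors. Its coding sequence is shown for the 3 release channels with the most reads, with the codons of this stretch in capitals, to show how far genes counted separately resemble each other at a conserved site. The sequences are on the coding strand of GENCODE transcripts and lie in GRCm38 at chr13:11560615-11560656 (minus strand, exon 101 of 105 of *Ryr2*), chr6:108518776-108518817 (plus strand, exon 58 of 62 of *Itpr1*) and chr6:146158899-146158940 (minus strand, exon 53 of 57 of *Itpr2*), all in coding sequence.
Ryr2: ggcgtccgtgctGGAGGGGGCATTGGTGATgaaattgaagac
Itpr1: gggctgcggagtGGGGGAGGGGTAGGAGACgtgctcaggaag
Itpr2: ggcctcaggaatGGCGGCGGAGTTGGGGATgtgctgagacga
Of the 18 capital bases, 11 were identical between *Ryr2* and *Itpr1*, 13 between *Ryr2* and *Itpr2*, and 12 between *Itpr1* and *Itpr2*. Over 1 whole transcript of each of the 10 genes, 0 of the 45 pairs shared a stretch of 50 bases. Introns were not compared.

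*Ryr2*, the ryanodine receptor of heart muscle that is also widely expressed in brain, had the most reads. It had 3, 199, 4, 34 and 177 reads in *Fezf2+ve* libraries 1 to 5. It had 4, 9, 4, 5 and 9 reads in *Fezf2−ve* libraries 1 to 5. *Fezf2+ve* libraries 2, 4 and 5 were above every *Fezf2−ve* library, and the levels of *Fezf2+ve* libraries 1 and 3 lay within the *Fezf2−ve* range, so the types overlapped. The level, TMM-normalized log2(CPM + 1), was 7.72 ± 2.78 in *Fezf2+ve* libraries against 5.21 ± 0.83 in *Fezf2−ve* libraries (SD, n = 5 each). It was higher in *Fezf2+ve* in 5 of 5 animals. In animals 1 and 3 the reads were 3 against 4 and 4 against 4, so the direction there rests on library scaling near the floor. The log2 fold change of *Fezf2+ve* over *Fezf2−ve* was 2.68 (standard error, SE, 1.36). The adjusted p was 0.998 by the quasi-likelihood method of edgeR, in a model that blocks on the animal and adjusts over all tested genes after Benjamini and Hochberg. Without the block the log2 fold change of *Ryr2* was 3.77 with an adjusted p of 0.105 in edgeR, above the threshold of 0.1, and over all alternatives its adjusted p lay between 0.105 and 1. After downsampling to the smallest library the log2 fold change was 4.17, the highest of its 16 values. The gene (ENSMUSG00000021313) spans chr13:11553102-12106945 on the minus strand and is protein-coding.

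The libraries with the most *Ryr2* reads differed in their markers. *Fezf2+ve* library 2, with 199 *Ryr2* reads, had the highest summed astrocyte and oligodendrocyte-lineage levels, 7683 and 12597 CPM. Of its 827 astrocyte marker reads, 778 were on *Slc1a2* alone. *Fezf2+ve* library 4, with 34 *Ryr2* reads, had 1682 and 158 CPM of these markers, with 238 of its 255 astrocyte marker reads on *Slc1a3*. *Fezf2+ve* library 5, with 177 *Ryr2* reads, had 477 and 856 CPM of these markers, and its astrocyte level was the lowest of the *Fezf2+ve* libraries. Without animal 2 the log2 fold change of *Ryr2* was 2.17, and without animal 5 it was 2.03.

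*Ryr1*, best known from skeletal muscle, and *Ryr3*, a further brain isoform, were near the detection limit. *Ryr1* had 1 read in *Fezf2+ve* library 2, 2 reads in *Fezf2+ve* library 5 and no read elsewhere, and was not tested. *Ryr3* had 1, 1, 0, 3 and 1 reads in *Fezf2+ve* and 0, 2, 1, 2 and 9 reads in *Fezf2−ve* libraries 1 to 5. Most *Ryr3* values were under 3 reads, the types overlapped, and only *Fezf2+ve* library 4 and *Fezf2−ve* library 5 reached 3. The log2 fold change of *Ryr3* was -0.58 (SE 1.80, adjusted p = 0.998 in edgeR with the block), and without animal 5 it was 0.07, so its direction rested on that animal.

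*Itpr1*, the main IP3 receptor of brain neurons, had 0, 0, 5, 1 and 1 reads in *Fezf2+ve* libraries 1 to 5. It had 1, 0, 3, 0 and 74 reads in *Fezf2−ve* libraries 1 to 5. *Fezf2−ve* library 5 alone held 87.1% of its reads, and the other 9 libraries overlapped between 0 and 5 reads. The level was 2.33 ± 2.28 in *Fezf2+ve* libraries against 3.05 ± 3.58 in *Fezf2−ve* libraries (SD, n = 5 each), with 2 animals higher in each type and both libraries of animal 2 at 0. For *Itpr1* the log2 fold change was -0.86 (SE 2.21, adjusted p = 0.998 in edgeR with the block). It was -2.95 without the block, -0.49 with DESeq2 and -0.28 with limma-voom, and without animal 5 the sign turned and the value was 0.79. *Itpr1* (ENSMUSG00000030102) spans chr6:108213096-108551109 on the plus strand.

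*Itpr2*, the IP3 receptor best known from astrocytes and other non-neuronal cells, showed a pattern by animal. It had 4, 6, 198, 3 and 3 reads in *Fezf2+ve* libraries 1 to 5. It had 3, 1, 192, 2 and 1 reads in *Fezf2−ve* libraries 1 to 5. Both libraries of animal 3 were high, at 1677 and 1138 CPM, and the other 8 libraries lay between 4.59 and 55.7 CPM, so the types overlapped. Both libraries of animal 3 together held 94.4% of the reads. Within each animal the *Fezf2+ve* level was the higher, in 5 of 5 animals, with means of 6.06 ± 2.47 (SD, n = 5) and 4.78 ± 2.90 (SD, n = 5). The log2 fold change was 1.22 (SE 1.22, adjusted p = 0.998 in edgeR with the block), 0.61 without the block and 1.40 without animal 3. The summed astrocyte level was 703 CPM in *Fezf2+ve* library 3 and 94.8 CPM in *Fezf2−ve* library 3, and in each type 3 other libraries had a higher one. *Itpr2* (ENSMUSG00000030287) spans chr6:146108299-146502223 on the minus strand. *Itpr3*, the IP3 receptor of many epithelial cells, had 1 read, in *Fezf2−ve* library 3, and was not tested.

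**Figure D2:**
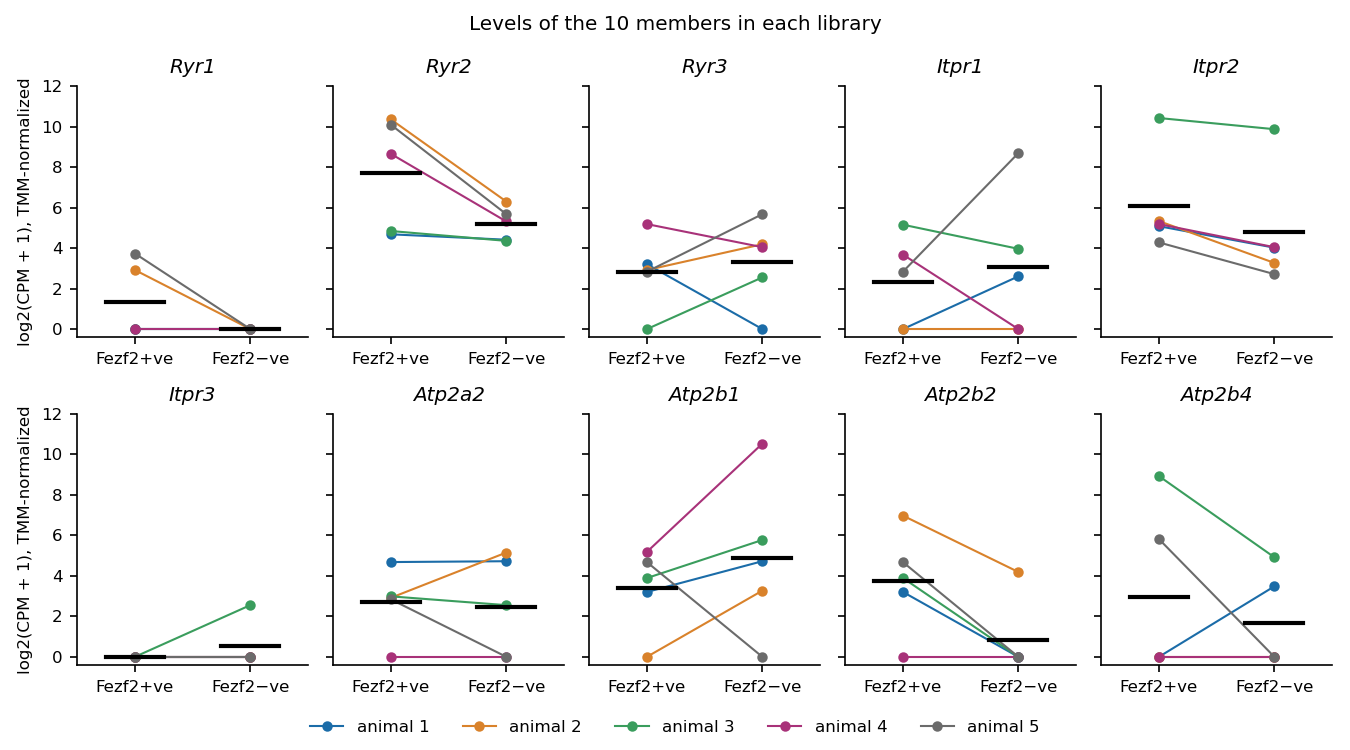
Level of each of the 10 genes, as TMM-normalized log2(CPM + 1), in *Fezf2+ve* (left) and *Fezf2−ve* (right) libraries, with lines joining both libraries of an animal and black bars at the mean of 5. *Ryr2* and *Itpr2* are higher in *Fezf2+ve* in 5 of 5 animals, and both libraries of animal 3 stand apart for *Itpr2*. For *Ryr2* the libraries of animals 1 and 3 have 4 reads or fewer each.

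For the pumps the conserved site is the aspartate that ATP phosphorylates during each transport cycle. The coding sequence around it is shown for the 2 pumps with the most reads, with the codons of the P-type ATPase phosphorylation motif in capitals. In GRCm38 they lie at chr10:98999805-98999849 (plus strand, exon 10 of 21 of *Atp2b1*) and chr1:133731795-133731839 (minus strand, exon 9 of 20 of *Atp2b4*), both in coding sequence.
Atp2b1: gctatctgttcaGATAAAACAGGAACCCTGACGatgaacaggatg
Atp2b4: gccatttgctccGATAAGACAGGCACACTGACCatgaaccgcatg
Of the 21 capital bases, 17 were identical between *Atp2b1* and *Atp2b4*.

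*Atp2a2*, which encodes the SERCA pump found in most cells, had 3, 1, 1, 0 and 1 reads in *Fezf2+ve* and 5, 4, 1, 0 and 0 reads in *Fezf2−ve* libraries 1 to 5. No library had more than 5 reads and the types overlapped. For *Atp2a2* the log2 fold change was -0.12 (SE 1.91, adjusted p = 0.998 in edgeR with the block). The value was 0.19 with DESeq2, 0.47 with limma-voom and 0.64 without animal 2, so no direction can be given. *Atp2a2* (ENSMUSG00000029467) spans chr5:122453513-122502225 on the minus strand.

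*Atp2b1*, a PMCA pump found in most tissues, had 1, 0, 2, 3 and 4 reads in *Fezf2+ve* libraries 1 to 5. It had 5, 1, 11, 190 and 0 reads in *Fezf2−ve* libraries 1 to 5. *Fezf2−ve* library 4 alone held 87.6% of the reads and the remaining libraries overlapped. The level was lower in *Fezf2+ve* in 4 of 5 animals, at 3.39 ± 2.04 (SD, n = 5) against 4.86 ± 3.84 (SD, n = 5). The log2 fold change was -1.87 (SE 1.71, adjusted p = 0.998 in edgeR with the block), -4.20 without the block, -0.999 with limma-voom, -0.77 without animal 4 and -3.12 without animal 5. *Fezf2−ve* library 4 also had the highest summed astrocyte level of the *Fezf2−ve* libraries, 3804 CPM, and the lowest summed microglial level among them, 1566 CPM. Of the 804 astrocyte marker reads in that library, 791 were on *Slc1a2* alone, and a link to the *Atp2b1* reads was not tested. *Atp2b1* (ENSMUSG00000019943) spans chr10:98914406-99026143 on the plus strand.

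*Atp2b2*, a fast PMCA pump of neurons and hair cells, had 1, 19, 2, 0 and 4 reads in *Fezf2+ve* and 0, 2, 0, 0 and 0 reads in *Fezf2−ve* libraries 1 to 5. *Fezf2+ve* library 2 held 67.9% of the reads, and the types overlapped, with the level of *Fezf2−ve* library 2 above those of *Fezf2+ve* libraries 1, 3 and 4. The level was higher in *Fezf2+ve* in 4 of 5 animals, and both libraries of animal 4 were at 0. The ratio of pooled CPM, *Fezf2+ve* over *Fezf2−ve*, was 15.9 with an exact 95% counting interval of 3.98 to 138. Pooled CPM divide the summed reads of a type by its summed reads on genes. The interval covers counting error and not the spread between animals. Mean CPM were 44.3 in *Fezf2+ve* and 4.49 in *Fezf2−ve*. The ratio rested on animal 2, with 177 CPM in *Fezf2+ve* library 2 and 22.4 CPM in *Fezf2−ve* library 2. The other *Fezf2+ve* libraries had 19.7 CPM or less, and the other *Fezf2−ve* libraries had no read. The fitted log2 fold change was 3.37 (SE 2.41, adjusted p = 0.998 in edgeR with the block) and depends on the prior count, because *Fezf2−ve* had 2 reads in all. *Atp2b2* (ENSMUSG00000030302) spans chr6:113743831-114042613 on the minus strand.

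*Atp2b4*, a PMCA pump that is also abundant in red blood cells, had 0, 0, 70, 0 and 9 reads in *Fezf2+ve* and 2, 0, 6, 0 and 0 reads in *Fezf2−ve* libraries 1 to 5. *Fezf2+ve* library 3 held 80.5% of the reads, both types had libraries at 0, and the types overlapped. The log2 fold change was 2.59 (SE 2.42, adjusted p = 0.998 in edgeR with the block), 3.59 without the block, 1.52 with DESeq2, 0.73 with limma-voom, 4.05 without animal 1, 1.20 without animal 3 and 1.32 without animal 5. The summed vascular and blood level was 67.8 CPM in *Fezf2+ve* library 3, below the 466 CPM of *Fezf2+ve* library 1, which had no *Atp2b4* read. Whether blood cells contributed to the *Atp2b4* reads was not tested. *Atp2b4* (ENSMUSG00000026463) spans chr1:133699457-133801041 on the minus strand.

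**Figure D3:**
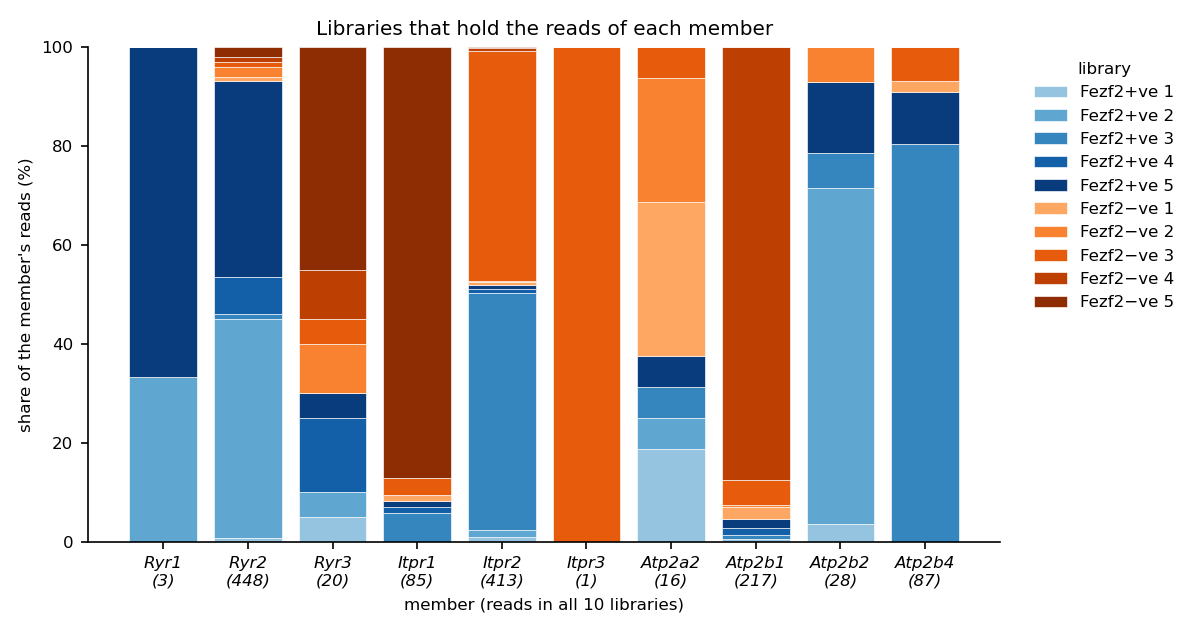
Share of the reads of each of the 10 genes (percent, stacked to 100) that came from each library, with *Fezf2+ve* libraries in blue and *Fezf2−ve* libraries in orange. *Fezf2−ve* library 5 holds 87.1% of the *Itpr1* reads and *Fezf2−ve* library 4 holds 87.6% of the *Atp2b1* reads.

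The question of the comparison was whether the 2 IT-PN types differ in these genes. Of the 10 genes, 8 had at least 10 CPM in at least 2 libraries and were tested among 7409 genes, and *Ryr1* and *Itpr3* were not. At these depths 10 CPM is reached by 1 to 3 reads. With the animal as a block, edgeR gave 0 of the 8 and 0 of the 7409 genes (0%) an adjusted p at or below 0.1. An unadjusted p under 0.05 was found for 2 of the 8, *Ryr2* and *Atp2b2*, and for 288 of the 7409 genes (3.89%). Without the block 0 of the 8 and 279 of the 7409 genes (3.77%) were called. DESeq2 with the block called 0 of the 5 members to which it gave an adjusted p and 98 of 1664 such genes (5.89%), and limma-voom called 0 of the 8 and 13 of the 7409 (0.175%). The spread between libraries was wide, with a common biological coefficient of variation of 1.19 over the tested genes, and a p above the threshold does not show that the types had the same level.

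The fold changes of the 8 genes pointed both ways. They were above 0 for *Ryr2*, *Itpr2*, *Atp2b2* and *Atp2b4* and below 0 for *Ryr3*, *Itpr1*, *Atp2a2* and *Atp2b1*. Signs of *Ryr3*, *Itpr1* and *Atp2a2* turned under at least 1 alternative, as given above. The median log2 fold change was 0.55 over the 8 and -0.16 over all 7409 genes, of which 3388 were above 0. Levels were higher in *Fezf2+ve* in all 5 animals for 2 of the 8, *Ryr2* and *Itpr2*, and for 125 of the 7409 genes (1.69%), and lower in all 5 animals for 0 of the 8 and 179 of the 7409 (2.42%). For *Ryr2* and *Itpr2* the reads behind this were few in some animals, as given above. The levels of the 2 types did not overlap for 0 of the 8 and for 108 of the 7409 genes (1.46%). With 8 genes chosen by name, no test of these counts was made.

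**Figure D4:**
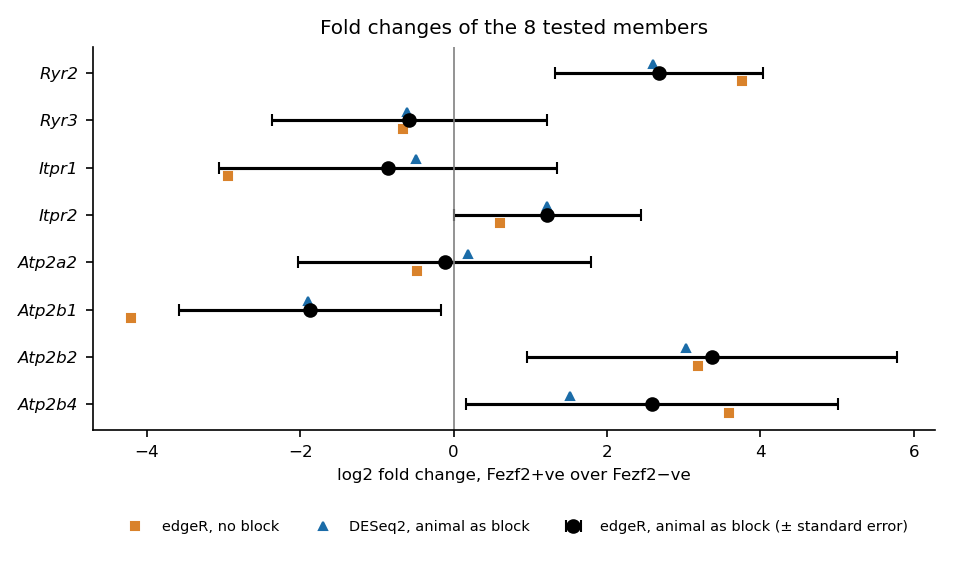
Log2 fold change, *Fezf2+ve* over *Fezf2−ve*, of the 8 tested genes from edgeR with the animal as a block (black, bars are standard errors), edgeR without the block (orange) and DESeq2 with the block (blue). *Atp2b1* moves from -1.87 to -4.20 when the block is left out, and *Atp2a2* lies on either side of 0.

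Summed by role, release channels had 8, 207, 207, 41 and 184 reads in *Fezf2+ve* and 8, 12, 201, 9 and 93 reads in *Fezf2−ve* libraries 1 to 5. Their summed level was higher in *Fezf2+ve* in 5 of 5 animals, by a mean of 1.77 ± 1.40 (SD, n = 5) on the log2(CPM + 1) scale, and by 0.10 when *Ryr2* was left out of the sum. In animals 1 and 3 the read numbers themselves were close, 8 against 8 and 207 against 201. Pumps had 5, 20, 75, 3 and 18 reads in *Fezf2+ve* and 12, 7, 18, 190 and 0 reads in *Fezf2−ve* libraries 1 to 5. Their difference was 0.91 ± 4.43 (SD, n = 5), with 3 animals higher in *Fezf2+ve* and 2 higher in *Fezf2−ve*, so that it was smaller than the spread between animals. It was 0.30 with a pseudocount of 10, 2.30 when *Atp2b1* was left out of the sum and 2.47 without animal 4, and without animal 5 the sign turned, to -0.56.

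Concentration of reads in 1 library was not particular to the calcium genes. At least 50% of the reads came from 1 library for 4 of the 8 tested genes, *Itpr1*, *Atp2b1*, *Atp2b2* and *Atp2b4*, and for 3797 of the 7409 tested genes (51.2%). The median share of the library with the most reads was 57.9% over the 8 and 50% over all tested genes, and it was 70.2% over the 926 tested genes with 100 to 600 reads. Both libraries with the most reads came from the same animal for 1 of the 8, *Itpr2*, and for 855 of the 7409 genes (11.5%).

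**Figure D5:**
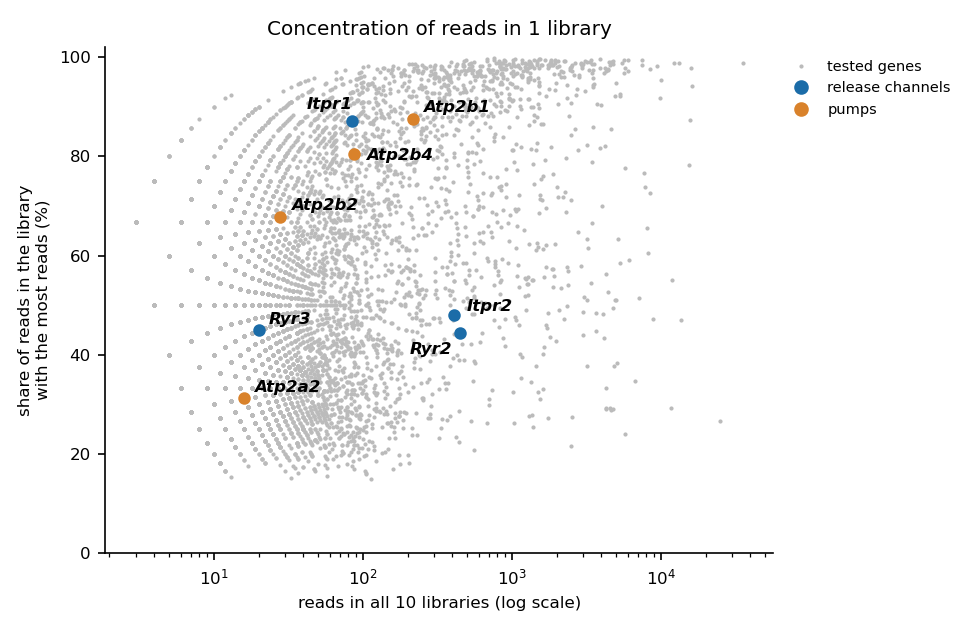
Share of a gene's reads in the library that holds most of them (percent) against its reads in all 10 libraries (log scale) for the 7409 tested genes (grey), with tested release channels in blue and pumps in orange. The 8 genes lie between 31.3 and 87.6%, among the other tested genes.

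The order of the levels of different genes depended on the scale, and which scale fits cDNA primed with oligo dT was not tested. In reads over all 10 libraries, not divided by length, *Ryr2* came first with 448, followed by *Itpr2* with 413 and *Atp2b1* with 217. Per kb of gene span, the mean over 10 libraries was 0.958 CPM per kb for *Atp2b1*, 0.757 for *Itpr2*, 0.674 for *Atp2b4* and 0.581 for *Ryr2*. It was 0.264 CPM per kb for *Atp2a2*, 0.124 for *Itpr1* and 0.0817 for *Atp2b2*, while *Ryr3*, *Ryr1* and *Itpr3* were at 0.0208 or less. These means pool both types, in which the order differed. *Atp2b1* had 8.04 CPM per kb in *Fezf2−ve* library 4, and 0.177 or less in every *Fezf2+ve* library. *Ryr2* had 3.34 in *Fezf2+ve* library 2, and *Atp2b4* had 5.84 in *Fezf2+ve* library 3. In *Fezf2−ve* libraries *Ryr2* had 0.182 or less and *Atp2b4* had 0.350 or less. Per kb of merged exons *Itpr2* came first with 20.1 CPM per kb, followed by *Ryr2* with 11.2 and *Atp2b1* with 7.03. Most reads of the first 4 genes came from 1 or 2 libraries, and differences between neighbours in the order per kb were not tested. Whether reads in introns were counted was examined on genes that lie wholly inside an intron of another gene. The outer gene had at least as many reads as the inner one in 216 of 417 library values (51.8%) with at least 3 reads on the inner gene. It did so in 77 of 210 values (36.7%) for pairs on the same strand, 139 of 207 (67.1%) for pairs on opposite strands and 30 of 144 (20.8%) where the inner gene is a miRNA. After these values had been seen, pairs whose inner gene is a miRNA or that are not nested in RefSeq were set aside, and the share was then 172 of 183 values (94.0%), and 125 of 130 (96.2%) where the 2 genes lie on opposite strands. Reads of the outer gene's own exons enter these counts too, and pairs that are not nested were not compared, so these pairs alone do not show which reads were counted.

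Other genes of the pathway were taken from fixed lists, and edgeR with the block called 0 of them, with an unadjusted p under 0.05 for 1, *Jph4*. DESeq2 and limma-voom also called 0 of them. For each list the 2 tested genes with the smallest unadjusted p are named, and the adjusted p of each of them was 0.998 in edgeR with the block. Among 12 other pumps and exchangers, 4 were tested and all 4 had fold changes below 0, with a median log2 fold change of -0.72. *Slc24a2*, a potassium-dependent sodium-calcium exchanger, had 16 reads in *Fezf2+ve* and 108 in *Fezf2−ve*, of which 97 were in *Fezf2−ve* library 1, and the log2 fold change was -1.08 (SE 1.31), or -2.11 without the block. *Slc8a3*, a sodium-calcium exchanger, had 1 and 9 reads, a ratio of pooled CPM of 0.136 (exact 95% counting interval 0.00310 to 0.981). Its mean CPM were 0.983 in *Fezf2+ve* and 13.6 in *Fezf2−ve*. Of 12 calcium-binding proteins and chaperones of the ER lumen, 9 were tested, 5 above and 4 below 0, with a median of 0.32. The luminal calcium buffer *Calr* had 10 reads in *Fezf2+ve* and 33 in *Fezf2−ve*, 23 of them in *Fezf2−ve* library 1, and its log2 fold change was -1.41 (SE 1.62). The calcium-storing calsequestrin *Casq2* had 13 and 2 reads, a ratio of pooled CPM of 7.95 (1.80 to 72.6), with mean CPM of 15.6 and 1.84. Of these reads 9 were in *Fezf2+ve* library 5 and 2 in *Fezf2−ve* library 5, so without animal 5 *Fezf2−ve* had no read. Of 12 genes of store-operated and receptor-operated entry in the table, 6 were tested, 2 above and 4 below 0, with a median of -0.75. The ER calcium sensor *Stim1* had 18 and 22 reads, 15 of them in *Fezf2+ve* library 5. For *Stim1* the log2 fold change was -1.40 (SE 1.59) with the block and -0.30 without it. The ratio of pooled CPM was 1.00 (0.506 to 1.95), whereas the mean CPM were 20.0 in *Fezf2+ve* and 31.7 in *Fezf2−ve*. *Saraf*, which inactivates this entry, had 12 and 35 reads and a value of -0.90 (SE 1.48).

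Among 22 binding partners and junctional proteins, 15 were tested, 6 above and 9 below 0, with a median of -0.35, or -0.16 when genes at 0 in 1 type were set at their bound. The same median over all tested genes was -0.02 with such bounds. Without the block 1 of the 15, *Jph4*, was called, beside 279 of all 7409 tested genes (3.77%). *Jph4*, a junctophilin that ties the ER to the plasma membrane in neurons, had 140 reads in *Fezf2+ve* and 0 in *Fezf2−ve*, but 137 of them were in *Fezf2+ve* library 4. The other 9 libraries had 2 reads or fewer, below the floor of 3, so without that library no fold can be given. *Ahcyl1*, which binds the IP3 receptor and holds back its opening, had 20 and 96 reads, 84 of them in *Fezf2−ve* library 2, and the log2 fold change was -2.45 (SE 2.03).

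Of 6 other calcium channels of intracellular membranes, 3 were tested, 2 above and 1 below 0, with a median of 0.14. *Tmco1*, an ER calcium channel, had 3 and 12 reads, a ratio of pooled CPM of 0.306 (0.0554 to 1.13), with mean CPM of 4.71 and 12.9. *Pkd2* had 5 and 3 reads, a ratio of pooled CPM of 2.04 (0.397 to 13.1), with mean CPM of 8.26 and 5.68. Of 11 genes of mitochondrial calcium uptake in the table, 9 were tested, 6 above and 3 below 0, with a median of 0.40, and 1 of them, *Mcu*, was called without the block. *Mcu*, the pore of the mitochondrial uniporter, had 14, 831, 133, 2 and 8 reads in *Fezf2+ve* and 5, 7, 7, 7 and 10 reads in *Fezf2−ve* libraries 1 to 5. *Fezf2+ve* libraries 2 and 3 were far above the rest, *Fezf2+ve* library 4 was the lowest, and the log2 fold change was 2.38 (SE 1.52) with the block and 4.81 without it. *Mcur1*, a regulator of the uniporter, had 22 and 1151 reads, 1131 of them in *Fezf2−ve* library 1, and a value of -2.91 (SE 1.69) with the block and -5.09 without it. Of 18 enzymes that make or break IP3, 6 were tested, 4 above and 2 below 0, with a median of 0.20. *Plcb1*, a phospholipase C of cortical neurons, had 181 and 60 reads, 135 of them in *Fezf2+ve* library 3, and the log2 fold change was 1.69 (SE 1.29). *Plcg1*, a phospholipase C downstream of receptor tyrosine kinases, had 20 and 1 reads, 17 of them in *Fezf2+ve* library 4. Its ratio of pooled CPM was 24.5 (3.91 to 1014), with mean CPM of 27.5 and 0.946.

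The genes most like *Ryr2* over the 10 libraries were *Tshz3*, *Gpr45*, *Aak1*, *Mlip* and *Large*, with Pearson correlations of the level of 0.96, 0.91, 0.90, 0.90 and 0.88. These values describe 10 libraries of 5 animals that share depth and type, and were picked as the highest of 7408. *Large* had 7, 185, 15, 76 and 112 reads in *Fezf2+ve* and 5, 6, 11, 36 and 22 reads in *Fezf2−ve* libraries 1 to 5. Like *Ryr2*, it had its highest values in *Fezf2+ve* libraries 2, 5 and 4. *Tshz3* had 14 reads, all in *Fezf2+ve*, and *Gpr45* and *Mlip* had 48 of 55 and 253 of 272 reads in *Fezf2+ve* library 5. Among the other tested calcium genes the correlation with *Ryr2* was 0.57 for *Atp2b2* and between -0.29 and 0.30 for the remaining 6.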

How the data were processed

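Per the labels and the study's methods, RNA was barcoded in cDNA synthesis, amplified by PCR and in vitro transcription, and sequenced. Per the submitters' processing notes the tools were bcl2fastq 1.8.4, TopHat2 2.1.1 and bedtools 2.26.0, with build mm10. The authors deposited read counts on RefFlat genes without normalization. Use of strand is not given in the sources used here, and 1 read can be counted on several overlapping genes. The spike-in counts, and the table of the authors' own DESeq2 comparison, which holds fold changes and p-values, were not used here.

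The 7409 genes of 24453 that reached 10 CPM in 2 or more libraries were normalized by TMM on the reads of these genes and tested with edgeR 4.0.16 in R 4.3.3 (quasi-likelihood, not the legacy method) with the animal as a block. A gene was called where p adjusted by Benjamini and Hochberg's method did not exceed 0.1. The choice between the legacy method and the other was settled after both had been run, and both called 0 genes. Standard errors are those of the coefficient before the prior count is added. Levels are log2(CPM + 1) on TMM-scaled totals. The sign-flip test is exact over 5 animals.

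The animal numbers come from the sample titles, and the labels state that both types were sorted from 1 animal. Deviations from the type means correlated by 0.03 on average within the 5 animals and by -0.01 over the 20 pairs of different animals, across genes, which are not independent replicates. The members and the lists of pathway and marker genes were chosen with earlier results of these data known. Named are all 10 members, 2 tested genes per list with the smallest unadjusted p, 5 genes most correlated with the member with the most reads, the most abundant marker of 6 of the 7 marker lists, and genes that overlap a member. Lists are described by counts and medians, and no set test was made. Marker genes at 0 are named to check the labels. The genes singled out beyond this rule were chosen after their values were seen.

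Positions, lengths and transcripts are those of GENCODE vM21 on GRCm38, which is mm10, matched by symbol for 23464 gene names and all 10 members. Protein sequences were not used here. Alternatives were a fit without the block, DESeq2 1.42.0, limma-voom (limma 3.58.1), other size factors, no filter, a stricter filter, downsampling to the smallest library, the legacy method, other pseudocounts and lengths, and leaving out each animal. Summaries and exact tests used scipy 1.17.1, pandas 2.3.3 and numpy 2.4.6 under Python 3.11.15, and figures matplotlib 3.10.9.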

Additional observations from a re-analysis of the deposited data

Results flagged for a closer look

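Within each type the 5 levels of each gene, the 5 summed levels, the 5 read totals and the 5 numbers of detected genes were searched for a library far from the other 4, by the gap to its neighbour over the whole range (Dixon's test). Of 26 groups with any spread, 4 had such a library. Chance gives about 1 in 20 for continuous values, a rate that does not hold for groups with many zeros, so the number is not read as an excess. For *Itpr2* the library apart was *Fezf2+ve* library 3 (gap over range 0.828, 198 reads) and *Fezf2−ve* library 3 (0.814, 192 reads), which are the 2 libraries of animal 3. For *Itpr3* it was *Fezf2−ve* library 3 and for *Atp2b2* *Fezf2−ve* library 2, each with a value of 1 because the other 4 libraries had no read, and these rest on 1 and 2 reads. The single libraries that hold most *Itpr1*, *Atp2b1* and *Atp2b4* reads did not meet this criterion.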

How the results depend on the processing

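Over all 7409 genes, edgeR with the animal block called 0, whereas the fit without this replicate block called 279, DESeq2 98 and limma-voom 13. The cause was not tested. The other size factors, filters, downsampling and the legacy method, the latter chosen after seeing the data, called 0, and so did each fit that left out an animal (0 to 0 calls). Among the calcium genes 0 were called in every alternative, with or without the block (0 to 0 when leaving out each animal), with an unadjusted p under 0.05 for 0 to 2 of them. Over all tested genes edgeR gave such a p to 288 of 7409 with the block and to 1345 of 7409 without it. The smallest adjusted p without the block was 0.105, for *Ryr2*, and over the alternatives the smallest for any member lay between that and 1.

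Of 113 fold changes of members under alternatives, 108 kept the sign and 5 reversed. *Atp2a2* turned to 0.19 with DESeq2, 0.47 with limma-voom and 0.64 without animal 2, *Itpr1* to 0.79 and *Ryr3* to 0.0675 without animal 5. Over all settings *Ryr2* ranged from 2.03 to 4.17, *Itpr1* from -2.95 to 0.79, *Atp2b1* from -4.20 to -0.77, *Atp2b2* from 2.13 to 3.87 and *Atp2b4* from 0.73 to 4.05. Leaving out each animal gave log2 fold changes of 2.03 to 3.18 for *Ryr2*, -1.28 to 0.07 for *Ryr3*, -2.14 to 0.79 for *Itpr1*, 1.01 to 1.40 for *Itpr2*, -0.67 to 0.64 for *Atp2a2*, -3.12 to -0.77 for *Atp2b1*, 2.95 to 3.87 for *Atp2b2* and 1.20 to 4.05 for *Atp2b4*. The median over all tested genes shifted by 0.12 with upper-quartile scaling, 0.13 after downsampling, 0.24 with limma-voom, and by -0.15 and -0.13 without animals 2 and 5. Relative to the median, 5 of the 8 members were above it, *Atp2a2* included.

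The summed release-channel difference was 1.28 to 2.07 when leaving out each animal and 0.10 without *Ryr2*. The summed pump difference was -0.56 to 2.47 when leaving out each animal, 0.30 with a pseudocount of 10 and 2.30 without *Atp2b1*. By level per kb *Ryr2* ranked 4 of 10 with gene span and 2 with merged exons. Both ranks rest on means that pool the types, and the order by gene span differed between the types. Where a filter removed a member, there is no value for it. Libraries held 89138 to 217738 reads on genes, and how the chance of a call depends on a gene's reads was not tested.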

Other observations

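Few genes in the count table share positions with the members. *Aven*, on the opposite strand, overlaps the end of *Ryr3* by 3219 bases and had 27 reads, 17 of them in *Fezf2+ve* library 5 and 7 in *Fezf2−ve* library 5, where *Ryr3* had 1 and 9. Reads in the shared stretch cannot be told apart. The miRNA genes *Mir1963*, *Mir7661*, *Mir7677* and *Mir6903*, which lie inside *Ryr1*, *Itpr1*, *Itpr3* and *Atp2b4*, had 0 reads.

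The tested marker genes with the smallest unadjusted p in their lists were as follows, with 0 called by edgeR with the block. *Csf1r*, the microglial growth factor receptor, had 5 reads in *Fezf2+ve* and 777 in *Fezf2−ve*, and its log2 fold change was -6.96 (standard error, SE, 1.82, adjusted p = 0.993, edgeR), and *Ctss* had a value of -6.28 (SE 1.58). All 12 microglial markers had fold changes below 0, and 9 of them were called without the block, 8 by DESeq2 and 6 by limma-voom, with an unadjusted p under 0.05 for 9 in edgeR with the block. The haemoglobin genes *Hba-a1* and *Hbb-bs* had 16 and 45 reads in *Fezf2+ve* against 233 and 365 in *Fezf2−ve*, and DESeq2 called 1 of the list, *Hba-a1*. Of the 5 tested vascular and blood markers 2 had fold changes above 0 and 3 below. The synaptic genes *Syt1* and *Snap25* had 54 and 50 reads in *Fezf2+ve* against 18 and 12 in *Fezf2−ve*, with 30 of the *Syt1* reads in *Fezf2+ve* library 2 and 35 of the *Snap25* reads in *Fezf2+ve* library 1. Of the 6 tested projection neuron markers 3 had fold changes above 0 and 3 below, with a median log2 fold change of 0.21. *Mbp* and *Cspg4*, of the oligodendrocyte lineage, had 444 and 175 against 113 and 67, with 289 of the *Mbp* reads in *Fezf2+ve* library 2 and 114 of the *Cspg4* reads in *Fezf2+ve* library 1. Of the 8 markers of this lineage 5 had fold changes above 0 and 3 below, *Pdgfra*, *Cnp* and *Mobp* had fewer reads in *Fezf2+ve*, and the summed level was higher in *Fezf2+ve* in 1 of 5 animals. *Aldoc* and *Slc1a2*, of astrocytes, had 109 and 947 against 54 and 870. The layer 5 markers *Etv1* and *Deptor* had 16 and 1 against 7 and 12.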
